A study of Mus musculus with 16 samples.

Results

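A set of 10 genes known for their place in cartilage, none of them a collagen, was read in RNA of cells sorted from mice: Acan, Hapln1, Comp, Chad, Matn1, Matn3, Cytl1, Sox9, Ihh and Panx3. They were taken as the rows of these symbols in the deposited table of normalized counts, and all 10 were found among its 20056 symbols. The libraries were made from poly(A) RNA of cells sorted from 8 mice, 4 miR-9-1-deficient animals made by CRISPR/Cas9 editing and 4 wild-type animals. By the animal numbers, each mouse gave 1 library labelled osteoblasts (OB) and 1 labelled mesenchymal stem cells (MSC). The 16 libraries fall into 4 groups of 4: miR-9-1-deficient OB, wild-type OB, miR-9-1-deficient MSC and wild-type MSC. The study set out to learn how miR-9-1 acts in the marrow niche in which lymphocytes form. The labels state neither strain, sex, age nor sort gate, and they do not say how many founder lines the deficient mice came from. Mice are lettered E to H (miR-9-1-deficient) and A to D (wild-type), and a mouse keeps its letter in OB and in MSC, the 2 sorts.

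Cartilage matrix is built around aggrecan (Acan), a large proteoglycan whose sulfated chains hold water, and which link protein (Hapln1) fastens to hyaluronan. Comp, the matrilins (Matn1, Matn3) and chondroadherin (Chad) are smaller proteins that bind collagen fibrils, one another or the chondrocyte surface. Sox9 is the transcription factor that sets the chondrocyte fate and drives many of these matrix genes, while Ihh is the hedgehog ligand of prehypertrophic chondrocytes and acts in a loop with the hormone PTHrP in the growth plate. Panx3 forms membrane channels in prehypertrophic chondrocytes and osteoblasts, and Cytl1 encodes a small secreted protein found in cartilage.

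miR-9 is a microRNA, and a microRNA lowers messenger RNAs that pair with its seed, bases 2 to 8 from its 5′ end. The deficient mice carry a disrupted Mir9-1, on chromosome 3, and RefSeq lists the same mature sequences for 3 mouse loci. Both mature forms are shown because they define which letters were searched for in the 10 genes. They are given 5′ to 3′ with the seed in capitals, from RefSeq GRCm38.p6, at chr3:88215613-88215635 and chr3:88215652-88215673 on the plus strand.
mmu-miR-9-5p: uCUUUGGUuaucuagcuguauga
mmu-miR-9-3p: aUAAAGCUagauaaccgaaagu
For each gene the longest 3′ UTR in the annotation was searched on the sense strand for the letters that pair with each seed. ACCAAAG, which pairs with the 5p seed, was in the 3′ UTR of 0 of the 10 genes, against 14.3% of 16789 genes with an annotated 3′ UTR. AGCTTTA, which pairs with the 3p seed, was in 2 of the 10, Sox9 and Hapln1, against 12.2% of the same genes. ACCAAAG was also looked for upstream of the 3′ UTR, from the transcript start through the stop codon, where 15.9% of the genes held it. There it was found in 1 of the 10, Cytl1, just after the start codon. AGCTTTA was not looked for there. The 3 matches are printed with their surroundings, the match in capitals, all on the plus strand of GRCm38: Sox9 at chr11:112786407-112786435, Hapln1 at chr13:89608916-89608944 and Cytl1 at chr5:37735542-37735570.
Sox9: gagcattggtgAGCTTTAtcatatatata
Hapln1: tatttttgagtAGCTTTActgaatcatat
Cytl1: ggcaccatgtcACCAAAGacactacctct
These are matches of letters only.

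Depth was 15543693 to 18962771 reads in OB and 10148197 to 14246986 in MSC libraries. A count of 0 allows up to 3 reads (95% confidence, counting error only), or 1.95 to 2.36 normalized counts in an OB and 3.52 to 4.51 in an MSC library. Mir9-1 was read 0, 3, 0 and 0 times in the deficient OB libraries E to H and 7, 16, 0 and 4 times in the wild-type OB libraries A to D. It was read 0 times in all 8 MSC libraries, so its loss was not detectable in MSC at this depth. The OB label was set against 9 osteoblast markers. All 9 were read in every group, yet their summed normalized counts were 14320 to 68849 in deficient and 100664 to 213634 in wild-type OB libraries, below the 196565 to 498286 and 648779 to 864676 of deficient and wild-type MSC libraries. Col1a1 made up most of these sums, with a mean of 33099 ± 20161 in deficient and 144611 ± 45818 in wild-type OB and 289052 ± 131173 in deficient and 697311 ± 108086 in wild-type MSC libraries. The sum of 7 blood progenitor markers ran the other way, with 15995 to 19867 over all OB and 3528 to 5592 over all MSC libraries. X-linked Xist and Y-linked Ddx3y were both read in every OB library (Xist at 3719.5 to 8053, Ddx3y at 649 to 1939), whereas each MSC library held only one of them at a high level: Ddx3y was at 1848 to 3355 in E, F and A and at 29.8 to 78.1 in the other 5. The OB libraries B, C, D, G and H held Ddx3y at 649 to 817, unlike the MSC libraries of the same letters. The OB libraries A, E and F held Xist at 3720 to 4652, against 291 to 392 in the MSC libraries of these letters. Reading an OB library as 1 mouse thus rests on the animal numbers. Whether an OB library holds RNA of more than 1 mouse, and whether the 4 of a group are independent, was not tested. They are called OB libraries below, not osteoblasts.

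The 10 genes spanned 4 orders of magnitude. On the scale of mean normalized count per kb of exon, the highest levels were those of Chad and Comp in wild-type MSC libraries (33124 ± 7747 and 29484 ± 6414, SD, n = 4) and the lowest that of Ihh there (2.05 ± 3.25). In deficient OB libraries the order was Chad (9681 ± 3539), Cytl1 (7288 ± 1544), Comp (2712 ± 1966), Acan (1096 ± 771), Hapln1 (381 ± 168), Sox9 (327 ± 157), Matn3 (249.7 ± 107), Panx3 (50.1 ± 24.7), Matn1 (12.7 ± 5.83) and Ihh (7.53 ± 3.14). In wild-type OB libraries Comp stood above Cytl1 (6369 ± 2059 and 2256 ± 449), the reverse of the deficient ones. Neighbours in the deficient order whose means lay within their summed SDs of each other were Chad and Cytl1, Comp and Acan, Acan and Hapln1, the trio Hapln1, Sox9 and Matn3, and Matn1 and Ihh. Levels of Chad and Comp thus lay far above those of Ihh, Matn1 and Panx3 in every group.

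**Figure D1:**
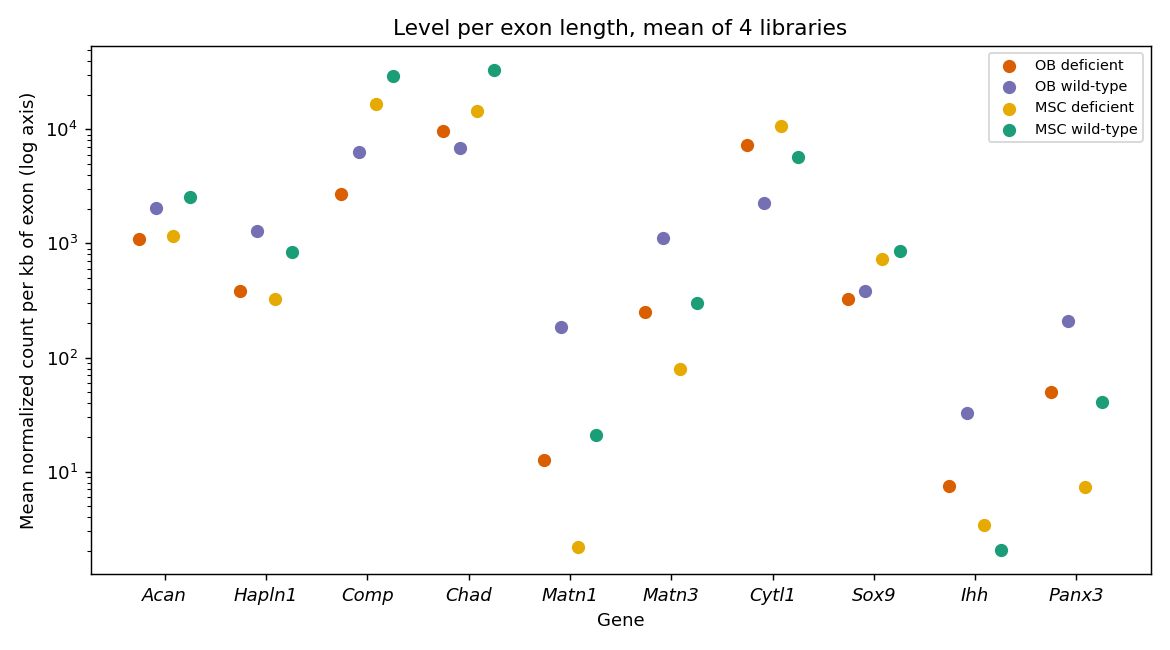
Mean normalized count per kb of exon (log axis) of each gene in the 4 groups, 4 libraries each. Chad, Comp and Cytl1 lie at the top in all 4 groups, and Ihh, Matn1 and Panx3 at the bottom.

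The genotype comparison asked what the 10 genes did in miR-9-1-deficient mice. In OB libraries 1 of the 10 passed, Cytl1, which was higher in deficient mice by 1.69 ± 0.16 (SE, as after every log2 fold change here) on the log2 scale of normalized count + 1 (adjusted p = 0.00814, limma). Of all 14229 genes tested there, 4 passed, which is 0.0281%. The other 9 did not pass, and 8 of the 10 log2 fold changes were negative, with a median of -1.55, against a median of -0.02 over all genes tested, of which 56.2% were negative. In MSC libraries 0 of 9 genes tested passed, against 159 of 14964 genes (1.06%), while 8 of the 9 fold changes were negative with a median of -1.22, against -0.03 over all genes, of which 52.7% were negative. Ihh was too low for the MSC fit. At an unadjusted p under 0.05 there were 7 of the 10 genes in OB and 6 of the 9 in MSC libraries, against 1274 and 3405 of all genes tested. On recovered reads edgeR called 1 of the 10 in OB and 0 in MSC libraries, and DESeq2 called 4 (Cytl1 higher, and Matn1, Matn3 and Ihh lower) in OB and 2 (Chad and Panx3, lower) in MSC libraries. Of all genes tested, edgeR called 4 in OB and 147 in MSC libraries, and DESeq2 called 191 and 1180. These totals also stand beside the list counts between genotypes given further below. A gene that does not pass is not shown to be alike in both genotypes, as the intervals in the plot of fold changes show.

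The genes whose 4 deficient and 4 wild-type libraries did not overlap were Cytl1 (higher in deficient mice), Matn1, Matn3 and Panx3 (lower) in OB libraries, where 5.47% of all genes tested did not overlap. In MSC libraries they were Matn3, Chad and Hapln1, all lower in deficient mice, where 12.4% of all genes did not overlap. Matn3 was the gene that did so in both. Marker lists of other cell types differed between genotypes as well. The 9 osteoblast markers had a mean log2 level of 8.10 to 10.20 in deficient and 10.34 to 11.12 in wild-type OB libraries, and of 10.40 to 11.23 in deficient and 11.92 to 12.03 in wild-type MSC libraries. Their sums given above, mostly Col1a1, did not overlap either. Single osteoblast markers ran both ways: Spp1 averaged 7929.6 ± 5239 in deficient and 4335 ± 1413 in wild-type OB and 34354 ± 11714 in deficient and 17734 ± 6161 in wild-type MSC libraries. Ibsp averaged 30454 ± 12717 in deficient and 20328 ± 5487 in wild-type MSC libraries. In OB libraries it went with the list, at 3502 ± 1445 in deficient and 5412 ± 1441 in wild-type mice. The 6 tendon and joint lining markers had a mean log2 level of 6.97 to 9.13 in deficient and 9.16 to 9.80 in wild-type OB libraries. In MSC libraries it was 10.46 to 11.64 in deficient and 11.52 to 12.51 in wild-type mice. The mean log2 levels of these markers did not overlap in OB but did in MSC libraries. Their summed counts overlapped in both sorts, at 19201 to 37714 in deficient and 15979 to 45856 in wild-type OB libraries and at 125194 to 278579.7 in deficient and 91479 to 193486 in wild-type MSC libraries. In MSC libraries the 7 B lineage markers had a mean log2 level of 3.67 to 4.95 in deficient mice, where Vpreb1 was at 0, and 6.31 to 7.07 in wild-type mice, though their sums overlapped (1934 to 3447 in deficient and 2113 to 2927 in wild-type mice). The sum of the blood progenitor markers was 3528 to 3967 in deficient and 4002 to 5592 in wild-type MSC libraries. Their mean log2 levels overlapped there (8.46 to 8.76 in deficient and 8.72 to 9.01 in wild-type mice). In OB libraries both measures of this list overlapped. A list of 10 chondrocyte markers, 5 of them members, had a mean log2 level of 10.61 to 11.79 in deficient and 12.23 to 13.58 in wild-type OB libraries, and of 9.19 to 10.89 in deficient and 11.25 to 13.54 in wild-type MSC libraries. Their sums did not overlap in OB but did in MSC libraries (25064 to 142522 in deficient and 137580 to 471858 in wild-type mice). For 5 hypertrophic chondrocyte markers, Ihh and Panx3 among them, the mean log2 levels overlapped in OB libraries (6.60 to 8.69 in deficient and 8.41 to 10.65 in wild-type mice). They overlapped in MSC libraries too (7.48 to 8.46 and 7.57 to 10.03), with sums of 23585 to 72131 and 18396 to 30398 in the same order. The part of these other cells in the result was not tested. In these bulk libraries, fewer cells of a type and less RNA per cell cannot be told apart.

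**Figure D2:**
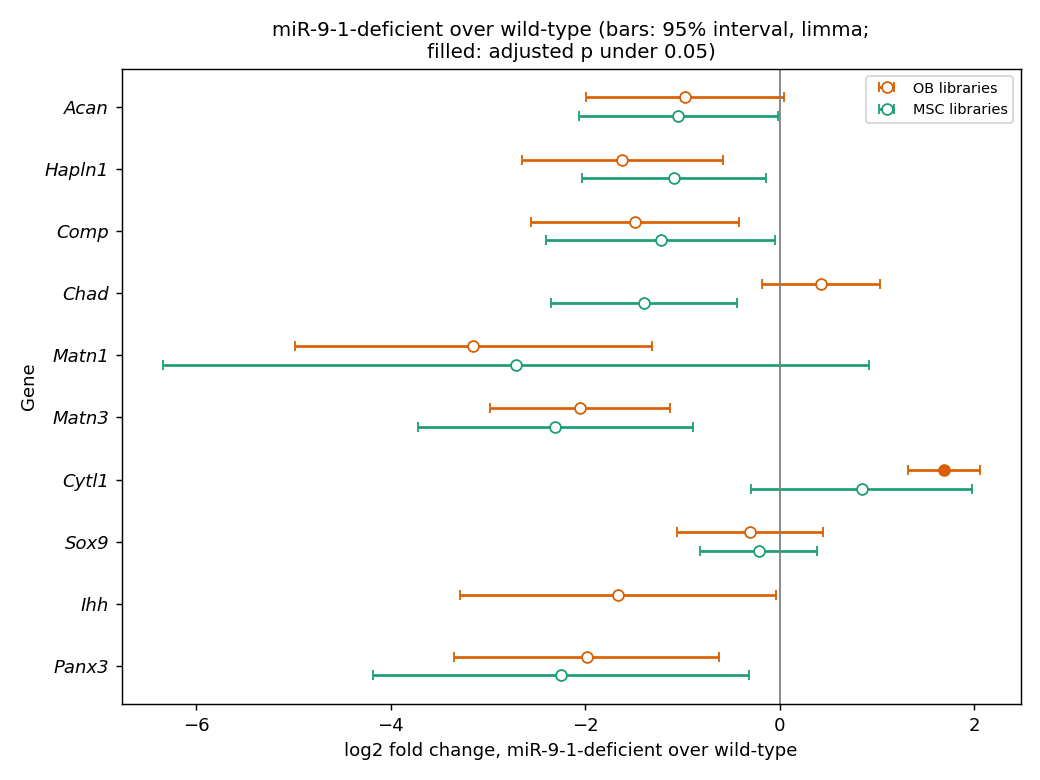
Log2 fold change of each gene, miR-9-1-deficient over wild-type, in OB (upper point) and MSC libraries (lower point), with the 95% interval from limma; a filled point has an adjusted p under 0.05. Cytl1 in OB libraries is the only filled point, and the points of Sox9 lie near 0 in both sorts. Ihh has no MSC point because it was too low to test.

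Cytl1 (chr5:37735519-37739820, plus strand, GRCm38/mm10), the secreted protein gene, was the member that passed. Its normalized counts in the deficient OB libraries E to H were 10080.0, 7326, 6440.3 and 6937, against 1869.8, 2236, 2418 and 3006 in the wild-type OB libraries A to D. Every deficient library lay above every wild-type one, and the mean was 3.23-fold higher (7696 ± 1630.2 and 2383 ± 474, SD, n = 4 each). The call was lost without the wild-type OB library B (1.67, adjusted p = 0.0531) and when all 16 libraries shared 1 estimate of the spread (adjusted p = 0.179), and over all alternatives the adjusted p ran from 9.55e-11 to 0.179 with the gene higher each time. Without the deficient OB libraries E and F, which carried the most marrow stroma marker reads of their group (mean log2 level 10.52 and 10.87, against 9.16 in G and 8.01 in H), the difference was 1.51 (adjusted p = 0.00537).

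In MSC libraries Cytl1 was read at 3486, 10346, 10461 and 20649.8 in deficient mice E to H and at 3802, 5379, 3005 and 12207 in wild-type mice A to D. Here the groups overlapped, because E lay among the wild-type values and D among the deficient ones. The log2 fold change was 0.84 ± 0.52 (adjusted p = 0.355), and without the deficient MSC libraries G and H, which held the most skeletal muscle marker reads, it was 0.20 (adjusted p = 0.887; 0.204 to 0.887 over all alternatives).

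Acan and Hapln1 make up the aggrecan aggregate. Acan (chr7:79053483-79115099, plus strand) was read at 16759, 5783, 5816 and 4379 in deficient OB libraries E to H and at 20726, 8782, 8818 and 22995 in wild-type OB libraries A to D. A and D were high among the wild-type libraries, and the deficient library E reached into their range. In MSC libraries its counts were 3645, 14183, 9247 and 7286 in deficient mice E to H and 11814, 11173, 11552 and 41044 in wild-type mice A to D, where A, B and C lay close together and D stood far above them. Its log2 fold changes were -0.98 ± 0.45 in OB (adjusted p = 0.562) and -1.04 ± 0.47 in MSC libraries (adjusted p = 0.213).

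Hapln1 (chr13:89539796-89611652, plus strand), the link protein gene, had 3617, 2014, 2108 and 1245 in deficient OB libraries E to H and 10078, 3491, 3695 and 13006 in wild-type ones A to D. Again A and D were the highest, and only E reached into the wild-type range. In MSC libraries it had 1144, 2393, 2135 and 2035 in deficient mice E to H, all below the 2546, 3127, 2647 and 11531 of wild-type mice A to D. The log2 fold changes were -1.62 ± 0.46 in OB (adjusted p = 0.334) and -1.09 ± 0.43 in MSC libraries (adjusted p = 0.169). Hapln1 holds AGCTTTA in its 3′ UTR, as printed above, and lies opposite the processed pseudogene Gm8546, with which it shares no exon base.

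Comp and Chad were the most abundant of the 10 genes per length in MSC libraries. Comp (chr8:70373558-70382066, plus strand), a pentameric protein that binds collagen fibrils, had 3569, 15509.8, 9856 and 3248 in deficient OB libraries E to H and 26805, 13927, 14236 and 20619 in wild-type ones A to D. F lay within the wild-type range and the other 3 deficient libraries below it. In MSC libraries it had 14351, 105310.2, 57365 and 21003 in deficient mice E to H and 109239, 83199.8, 63877 and 93603 in wild-type mice A to D, so that F was as high as the wild-type libraries and E, G and H were below all 4. The log2 fold changes were -1.49 ± 0.48 in OB (adjusted p = 0.379) and -1.22 ± 0.54 in MSC libraries (adjusted p = 0.204). Without the deficient MSC library F the MSC value was -1.73 and passed (adjusted p = 0.0209; 0.0209 to 0.479 over all alternatives).

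Chad (chr11:94565047-94569127, plus strand), a leucine-rich protein that binds chondrocytes, had 7524, 37889, 31048 and 20879 in deficient MSC libraries E to H and 59747, 54756, 38467 and 69626 in wild-type ones A to D. Every deficient MSC library lay below every wild-type one, F only just. In OB libraries its counts were 21818, 14499, 20064 and 8672 in deficient mice E to H and 15310.2, 9507, 11641 and 10011 in wild-type mice A to D, where E and G were the highest of the 8 and H the lowest. The log2 fold changes were 0.42 ± 0.27 in OB (adjusted p = 0.661) and -1.39 ± 0.44 in MSC libraries (adjusted p = 0.112). The MSC value passed in 3 alternatives: without the deficient library F (-1.68, adjusted p = 0.0233), by DESeq2 on recovered reads (-1.18, adjusted p = 0.0229) and with all 16 libraries in 1 fit (adjusted p = 0.0315), with a range of 0.0229 to 0.307 over all alternatives. Chad lies within the span of Acsf2 on the other strand and shares no exon base with it; counting is not stated to use strand, and Acsf2 itself was at 438 ± 51.3 in deficient and 442 ± 48.1 in wild-type OB libraries.

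The matrilins had the most negative fold changes of the 6 matrix genes among the members. Matn3 (chr12:8947929-8972028, plus strand) had 1210.0, 554, 741 and 506 in deficient OB libraries E to H and 4933, 1871, 1633 and 4959 in wild-type ones A to D. In MSC libraries it had 43.4, 104, 463 and 343 in deficient mice E to H and 561, 581, 857 and 1594 in wild-type mice A to D. In both sorts all 4 deficient libraries lay below all 4 wild-type ones, with E and F lowest in MSC. The log2 fold changes were -2.05 ± 0.41 in OB (adjusted p = 0.174) and -2.31 ± 0.64 in MSC libraries (adjusted p = 0.0872). It passed in OB libraries by DESeq2 (-2.12, adjusted p = 0.00667; 0.00667 to 0.506 over all alternatives) and in MSC libraries with all 16 libraries in 1 fit (adjusted p = 0.0229; 0.0229 to 0.221 over all alternatives).

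Matn1 (chr4:130944385-130955475, plus strand), the matrilin most particular to cartilage, was low. It had 19.1, 13.0, 30.7 and 39.1 in deficient OB libraries E to H and 458, 42.3, 129 and 861 in wild-type ones A to D, without overlap, though the deficient library H and the wild-type library B were close. In MSC libraries it was read 0, 0, 0 and 12 times in deficient mice E to H and 8, 15, 0 and 92 times in wild-type mice A to D, so it passed the filter on low values mainly through the wild-type group. The log2 fold changes were -3.15 ± 0.82 in OB (adjusted p = 0.284) and -2.71 ± 1.65 in MSC libraries (adjusted p = 0.352), and the MSC value depends on the pseudocount, being -1.66 with a pseudocount of 5. DESeq2 called Matn1 lower in deficient OB libraries (-3.86, adjusted p = 0.00259), and the adjusted p ran from 0.00259 to 0.693 over all alternatives.

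Sox9 (chr11:112782224-112787760, plus strand), the chondrocyte transcription factor, had the log2 fold changes nearest 0 among the members tested in each sort. It had 2226, 1280.5, 1238 and 659.9 in deficient OB libraries E to H and 2080.3, 1448, 1016 and 1764 in wild-type ones A to D, and E and H lay on either side of the wild-type range. In MSC libraries it had 2261, 4335, 2980.3 and 2474 in deficient mice E to H and 2911, 3462, 2280.2 and 5669 in wild-type mice A to D, with D the highest. The log2 fold changes were -0.30 ± 0.34 in OB (adjusted p = 0.809, 95% interval -1.06 to 0.45) and -0.21 ± 0.27 in MSC libraries (adjusted p = 0.677, 95% interval -0.81 to 0.39). With only the mice whose numbers begin with 29 (E, F, G and A, B, C) the sign turned in both sorts, to 0.07 in OB and 0.12 in MSC libraries, as it did in MSC without the wild-type library D (0.04).

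Ihh (chr1:74945315-74951672, minus strand), the hedgehog ligand, was the least abundant member per kb in every group but deficient MSC, where Matn1 was lower. It had 22, 29.3, 30.7 and 9.77 in deficient OB libraries E to H and 157, 15, 54.2 and 170.3 in wild-type ones A to D. A and D were high, while B lay among the deficient values. The log2 fold change was -1.66 ± 0.72 (adjusted p = 0.543), and DESeq2 called it lower (-2.09, adjusted p = 0.0457; 0.0457 to 1.00 over all alternatives). In MSC libraries it was read 5, 8, 5 and 13 times in deficient mice E to H and 0, 2, 1 and 14 times in wild-type mice A to D.

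Panx3 (chr9:37659902-37669235, minus strand), the channel gene of prehypertrophic chondrocytes and osteoblasts, had 180.0, 229.9, 228 and 49.6 in deficient OB libraries E to H and 1137, 232, 417 and 1075 in wild-type ones A to D. The groups did not overlap, but F, G and B were nearly level, and H stood below all others. In MSC libraries it had 14.1, 41.2, 3.92 and 42.4 in deficient mice E to H and 65.2, 23.3, 120.2 and 355 in wild-type mice A to D, where F and H lay above B. The log2 fold changes were -1.99 ± 0.61 in OB (adjusted p = 0.379) and -2.25 ± 0.88 in MSC libraries (adjusted p = 0.167), and DESeq2 called the MSC value (-2.46, adjusted p = 0.0258; 0.0258 to 0.414 over all alternatives).

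**Figure D3:**
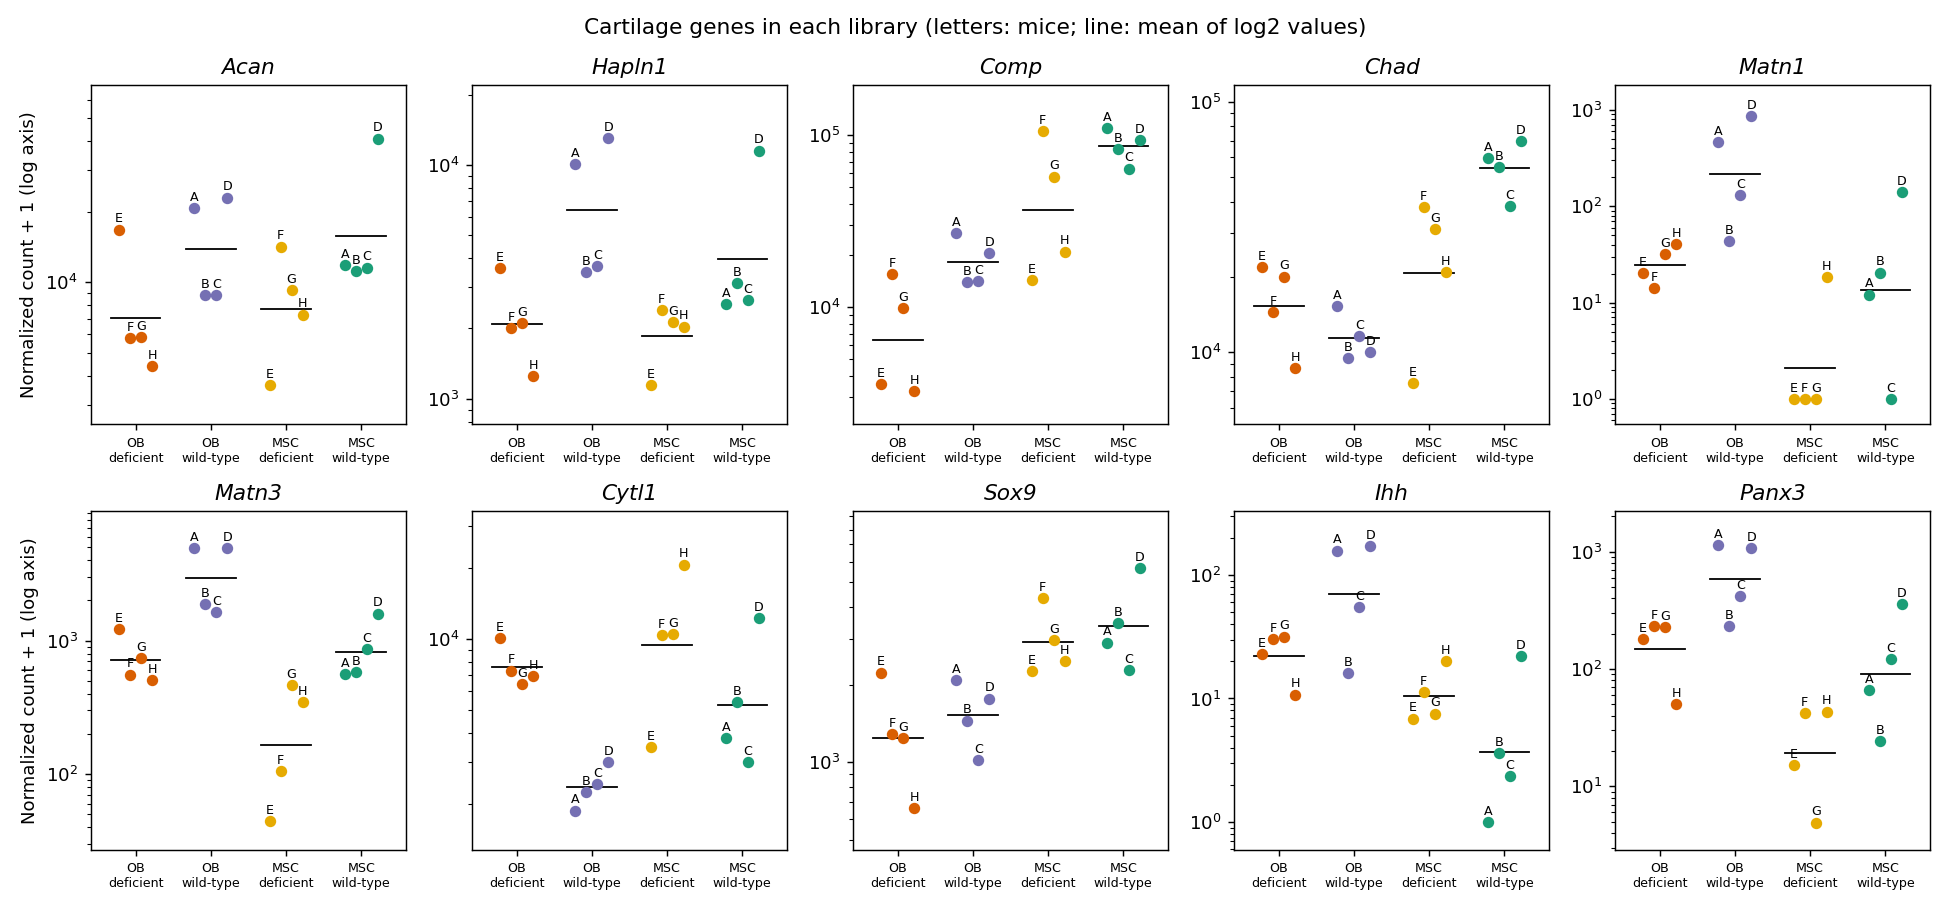
Normalized count + 1 (log axis) of each gene in every library, lettered by mouse, for deficient and wild-type OB and deficient and wild-type MSC libraries; the line is the mean of the log2 values. Cytl1 in OB libraries shows 4 deficient points above 4 wild-type points, Matn3 shows the opposite order in both sorts, and D stands above the other wild-type MSC libraries for Acan, Hapln1, Matn1 and Panx3.

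Whether a genotype difference itself differed between the sorts was tested as the OB minus the MSC log2 fold change over all 16 libraries. By limma 0 of the 10 genes passed (2 at an unadjusted p under 0.05, Chad and Ihh), against 2 of 15556 genes (0.0129%) and 1786 at an unadjusted p under 0.05; edgeR and DESeq2 also called 0 of the 10. Chad came nearest, with a difference of 1.82 ± 0.57 (unadjusted p = 0.00550, adjusted p = 0.291): its fold change was negative in MSC and positive in OB libraries. That difference passed without the deficient MSC library F (2.11, adjusted p = 0.0452; 0.0452 to 0.520 over all alternatives). For Ihh the difference was -3.16 (95% interval -5.78 to -0.53, adjusted p = 0.370), and for Cytl1 it was 0.85 ± 0.62 (adjusted p = 0.621), so the fact that Cytl1 passed in OB and not in MSC libraries does not show that its change differed between them.

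The comparison of sorts asked where these genes were read. In wild-type mice 8 of the 10 differed between OB and MSC libraries, 4 higher in OB (Matn1, Matn3, Ihh and Panx3) and 4 lower (Sox9, Comp, Cytl1 and Chad), which is close to the 69.9% of all 14696 genes that did. Ihh and Matn1 entered this test mainly through the OB libraries, where they were high, and of the other 8 members 6 passed. Matn3 lay higher in OB without overlap, and Sox9, Comp and Chad lower, whereas 65.5% of all genes did not overlap. In deficient mice 5 passed, Matn1, Matn3 and Panx3 higher in OB and Sox9 and Comp lower, against 59.6% of 14692 genes, and here Matn1 also entered through the OB libraries. Here Matn3 and Panx3 were higher and Sox9 lower without overlap, against 55.2% of all genes. OB libraries also held more blood progenitor and fewer osteoblast marker reads, as given above, and the part of this in the result was not tested.

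Among the genes lower in OB libraries, Chad averaged 11617 ± 2625 in wild-type OB and 55649 ± 13015 in wild-type MSC libraries (log2 fold change -2.25 ± 0.19, adjusted p = 1.71e-06), and Comp averaged 18897 ± 6108 and 87479.5 ± 19029.6 in the same order (-2.24 ± 0.23, adjusted p = 6.06e-06). Sox9 was at 1577 ± 454 in wild-type OB and 3580.5 ± 1473 in wild-type MSC libraries (-1.15 ± 0.27, adjusted p = 0.00326), and Cytl1 at 2383 ± 474 and 6098 ± 4190.2 (-1.16 ± 0.35, adjusted p = 0.0132). Sox9, Comp, Chad and Cytl1 were thus lower in wild-type OB libraries while both matrilins were higher. In deficient mice Sox9 was lower in OB libraries (-1.24 ± 0.34, adjusted p = 0.0107), and so was Comp (-2.50 ± 0.69, adjusted p = 0.0114), and Comp missed the threshold after quantile normalization (-1.60, adjusted p = 0.0589; 2.00e-05 to 0.0589 over all alternatives).

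Among the genes higher in OB libraries, Matn3 averaged 3349 ± 1847 in wild-type OB and 898 ± 483 in wild-type MSC libraries (1.85 ± 0.43, adjusted p = 0.00260), and in deficient mice it averaged 753 ± 321 in OB and 238 ± 198 in MSC libraries (2.10 ± 0.67, adjusted p = 0.0216). The call in deficient mice was lost without the deficient MSC library F (1.88, adjusted p = 0.0536) or the deficient OB library E (1.84, adjusted p = 0.0553), within 0.00882 to 0.0553 over all alternatives. Panx3, the channel gene, was higher in OB libraries by 2.69 ± 0.75 in wild-type mice (adjusted p = 0.00807) and by 2.95 ± 0.76 in deficient mice (adjusted p = 0.00805).

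Matn1 and Ihh were near the floor in MSC libraries and passed the filter through the OB ones, so their sort differences rest on few MSC reads. Ihh was at 99.2 ± 76.4 in wild-type OB libraries and was read 0, 2, 1 and 14 times in wild-type MSC libraries A to D (4.24 ± 1.02, adjusted p = 0.00345). Matn1 was higher in OB by 3.99 ± 1.35 in wild-type mice (adjusted p = 0.0210) and by 3.56 ± 1.03 in deficient mice (adjusted p = 0.0138). The wild-type call was lost without the OB library A (3.63, adjusted p = 0.0554) or D (3.33, adjusted p = 0.0629; 0.00157 to 0.0629 over all alternatives), and the deficient call by edgeR (adjusted p = 0.0789) and by DESeq2 (adjusted p = 0.0818; 0.000895 to 0.0818 over all alternatives).

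The genes of the aggrecan aggregate did not pass between the sorts in wild-type mice. Acan averaged 15330.2 ± 7597 in wild-type OB and 18896 ± 14768 in wild-type MSC libraries, a log2 fold change of -0.19 ± 0.45 (95% interval -1.19 to 0.81, adjusted p = 0.722) whose sign turned under quantile normalization (0.70) and without the MSC library D (0.27). Hapln1 averaged 7567 ± 4743 and 4963 ± 4386 (0.70 ± 0.54, adjusted p = 0.269). It passed with the mouse as a replicate block, which pairs the OB and MSC libraries of an animal number (0.70, adjusted p = 0.0321), and without the wild-type MSC library D (1.21, adjusted p = 0.0270; 0.0270 to 0.577 over all alternatives). Quantile normalization moved the median log2 fold change of all genes to 0.17 in wild-type and 0.10 in deficient mice, so its sort differences are relative to that shift.

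**Figure D4:**
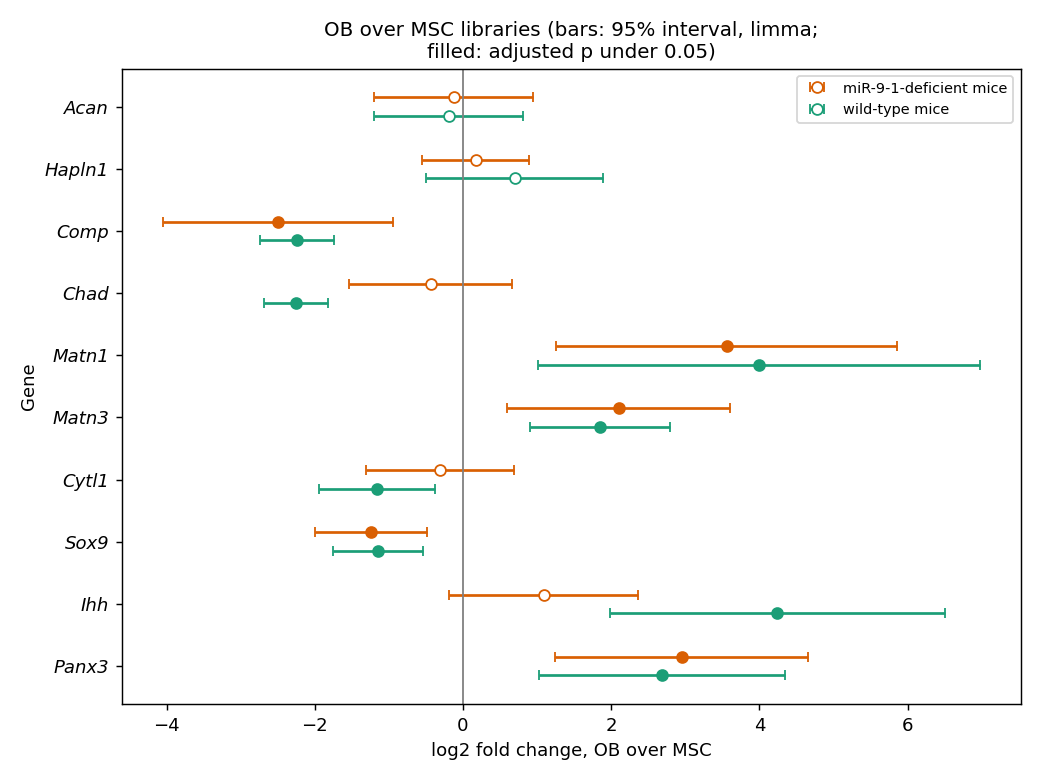
Log2 fold change of each gene, OB over MSC libraries, in miR-9-1-deficient (upper point) and wild-type mice (lower point), with the 95% interval from limma; a filled point has an adjusted p under 0.05. Comp and Sox9 are filled left of 0 and Matn1, Matn3 and Panx3 right of 0 in both genotypes, while Chad, Cytl1 and Ihh are filled in wild-type mice only; whether the sort difference itself differs by genotype is the test of the difference, in which 0 of the 10 passed.

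The libraries of a group differed widely, and the same letters recurred at the extremes. Among deficient OB libraries E was the highest for 6 of the 10 genes and H the lowest for 8. Among wild-type OB libraries D was the highest for 6 and A for the other 4, and B was the lowest for 7. Among deficient MSC libraries E was the lowest for 9 (for Matn1 level with F and G at 0 reads), and among wild-type MSC libraries D was the highest for 9. Library E was thus most often at the top of its group in OB and at the bottom of its group in MSC. In OB libraries the spread was widest for Matn1 and Ihh in wild-type mice, where the highest library was 20.4 and 11.4 times the lowest, and narrowest for Cytl1, with 1.57 times in deficient and 1.61 times in wild-type mice (Chad also had 1.61 times in wild-type mice).

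**Figure D5:**
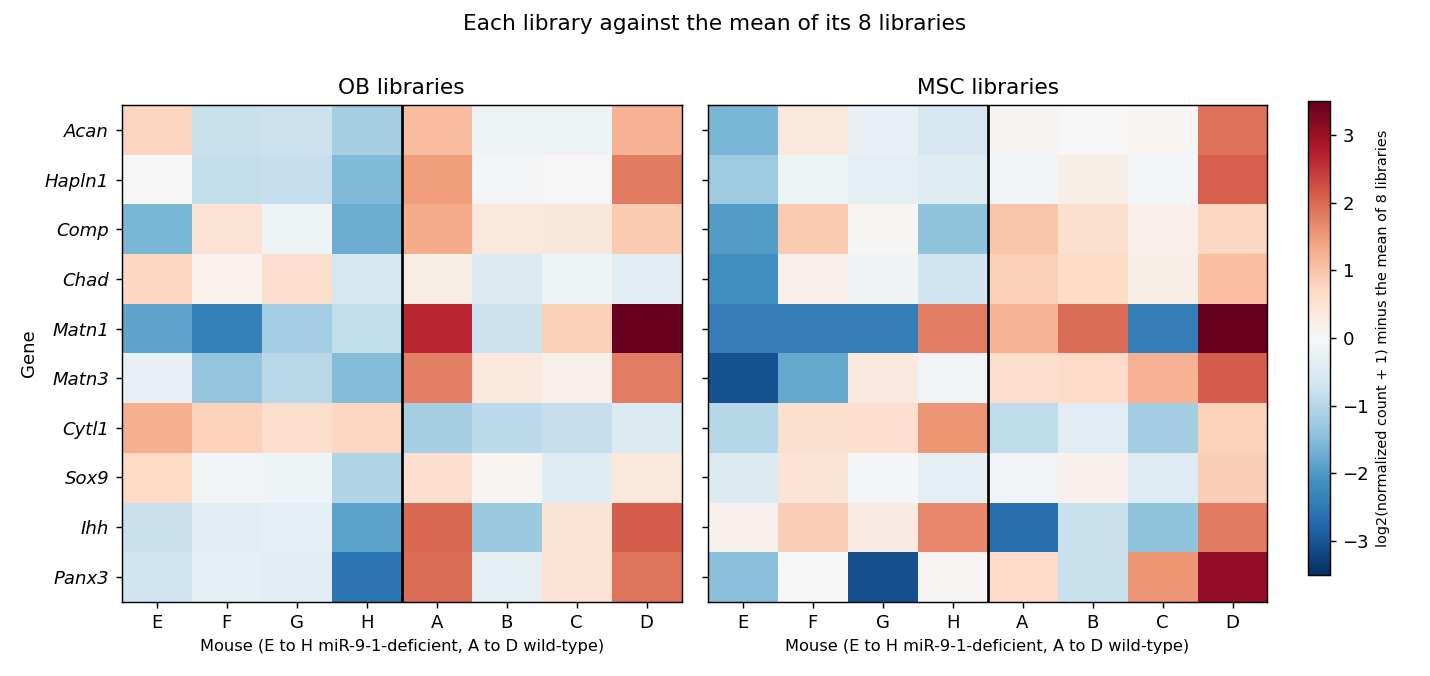
Log2(normalized count + 1) of each gene in each library minus the mean of the 8 libraries of that sort, with deficient mice (E to H) left of wild-type mice (A to D); red is above and blue below that mean. Columns A and D of the OB libraries and column D of the MSC libraries are red for nearly all genes, column E of the MSC libraries is blue for all but Ihh, and the Cytl1 row is reversed in the OB libraries.

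Within OB libraries several of these genes followed each other across the 8 libraries. Pearson's r on the log2 scale was 0.97 between Matn3 and Hapln1, 0.95 between Ihh and Panx3, and 0.94 between Acan and Hapln1, while Cytl1 had a negative r with 8 of the other 9 (-0.77 with Matn3 and -0.76 with Comp). In the 8 MSC libraries r was 0.96 between Acan and Hapln1 and 0.92 between Comp and Chad. These values describe libraries that share mice, genotype and sort, and genes are not independent of one another.

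Over all 16 libraries, the 2 or 3 genes most like each member by Pearson's r were drawn from 12580 genes with a mean of at least 50. They included cartilage genes for Matn3, Hapln1, Acan, Comp and Panx3. How common cartilage genes are among the 12580 was not counted. Matn3 was followed by the cartilage collagen genes Col9a1 (r = 0.97), Col9a3 (0.96) and Col11a2 (0.95). Hapln1 was followed by Chadl (0.92), a relative of Chad, then Col11a2 (0.89) and Acan (0.89), and Acan by Hapln1, Fam101a (0.87) and Gramd2 (0.86). Comp was followed by Fmod (0.97), which encodes fibromodulin, Col24a1 (0.97) and Rcn3 (0.97), and Panx3 by Mia (0.89), a secreted cartilage protein gene, Pgam1 (0.89) and Cebpg (0.89). The others had no such neighbours: Cytl1 was followed by Foxj1 (0.79), Zfp512 (0.78) and Penk (0.77), Sox9 by Mtcl1 (0.95), Kifc3 (0.94) and Rab11fip4 (0.94), Chad by Hcfc1r1 (0.93), 1700021K19Rik (0.92) and Dusp8 (0.92), Matn1 by Mknk1 (0.89) and Vipas39 (0.89), and Ihh by Hic2 (0.87), Rabepk (0.86) and Zc3h10 (0.86). These 16 libraries span both sorts and both genotypes, and r includes the gaps between them.

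Other cartilage genes were read beside the 10. Of 8 cartilage collagen genes 0 passed by limma in either genotype comparison (8 at an unadjusted p under 0.05 in OB and 6 in MSC libraries; 0 by edgeR in both, 7 and 3 by DESeq2), and all 8 fold changes were negative in both sorts, with a median of -2.17 in OB and -1.96 in MSC libraries. Col2a1, the main collagen of cartilage, was at 27292 ± 11875 in deficient and 207549 ± 101736 in wild-type OB libraries (-2.89 ± 0.40, adjusted p = 0.0765; it passed without E, 0.0430, or H, 0.0322, over a range of 1.43e-06 to 0.309). Col11a1 had the smallest MSC p (-1.43 ± 0.30, adjusted p = 0.0517) and passed without F (0.00302; range 0.000289 to 0.295). Of 14 other cartilage matrix genes, 0 of 14 tested passed by limma in OB libraries (12 negative, median -0.89). By limma 7 were at an unadjusted p under 0.05 in OB libraries, with 0 called by edgeR or DESeq2. In MSC libraries 1 of 13 tested passed by limma (11 negative, median -1.08). There 5 were at an unadjusted p under 0.05, with 0 called by edgeR and 3 by DESeq2 (Chadl, Cilp2 and Fmod). The gene that passed by limma was Cilp2, a cartilage intermediate layer protein gene. Cilp2 fell to 7632 ± 6379 in deficient MSC libraries, against 37994 ± 9318 in wild-type ones (-2.63 ± 0.46, adjusted p = 0.0348). Its call was lost by edgeR and without any 1 MSC library other than F (adjusted p = 0.0817 to 0.101), with 0.000667 to 0.256 over all alternatives. Against wild-type MSC, wild-type OB libraries had 6 of the 8 collagens higher and 0 lower by limma, where 69.9% of all genes passed in either direction. Of the 8, edgeR called 2 and DESeq2 called 2 (Col9a1 and Col9a3), where they called 10202 and 10437 of all genes. Of the 14 matrix genes, 3 were higher (Otos, Mia and Lect1) and 6 lower (Cilp2, Fmod, Prelp, Cilp, Prg4 and Clec3a), where 69.9% of all genes passed.

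Family relatives of the 10 genes were read as well. Of 14 relatives tested in wild-type mice 8 were lower in OB libraries and 2 higher, a share close to the 69.9% of all genes. Matn2 and Matn4 were lower (-3.30 ± 0.24 and -2.64 ± 0.18), where Matn1 and Matn3 were higher, Matn1 on few MSC reads. All 4 thrombospondin genes tested, Thbs1 to Thbs4, the family to which Comp belongs, were lower (-3.94 to -2.27), as Comp was, and Panx1 was higher (1.57 ± 0.17), as Panx3 was. In the genotype comparisons 0 of 12 relatives passed by limma in OB libraries (4 at an unadjusted p under 0.05, 0 by edgeR or DESeq2) and 0 of 13 in MSC libraries (5 at an unadjusted p under 0.05, 0 by edgeR, 1 by DESeq2). Thbs1 had the smallest p in both, with 1.14 ± 0.34 in OB (adjusted p = 0.369, 0.0348 without H, range 0.0348 to 0.744) and 1.06 ± 0.28 in MSC libraries (adjusted p = 0.0802, 0.00361 without F, range 0.000186 to 0.355).

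Of 10 genes of the hedgehog and PTHrP pathway, in which Ihh is the ligand, 0 passed by limma in either genotype comparison (3 at an unadjusted p under 0.05 in OB and 2 in MSC libraries; 0 by edgeR in both, 0 and 1 by DESeq2). Gli1, whose transcription answers hedgehog signalling, was at 214 ± 100.4 in deficient and 149 ± 24.3 in wild-type OB libraries, and at 1054 ± 50.2 in deficient and 954 ± 42.3 in wild-type MSC libraries. The smallest p were those of the PTHrP receptor gene Pth1r in OB (-1.35 ± 0.42, adjusted p = 0.379) and the hedgehog inhibitor gene Hhip in MSC libraries (-0.92 ± 0.27, adjusted p = 0.0970, 0.0273 without F, range 0.0250 to 0.337). Between the sorts, 9 of the 10 were lower in wild-type OB than in wild-type MSC libraries and 8 in deficient mice, against 69.9% of all genes passing in either direction in wild-type and 59.6% in deficient mice, among them Gli1 (-2.69 ± 0.13) and the receptor gene Ptch1 (-0.98 ± 0.14) in wild-type mice.

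Among 14 chondrocyte regulators 0 passed by limma between genotypes in OB libraries (14 tested, 3 at an unadjusted p under 0.05, 0 by edgeR or DESeq2) or MSC libraries (13 tested, 4 at an unadjusted p under 0.05, 0 by edgeR, 1 by DESeq2). Nkx3-2, a repressor that acts with Sox9, had the smallest MSC p (-1.52 ± 0.43, adjusted p = 0.0899, 0.0455 without F, range 0.0121 to 0.295). In wild-type mice Runx3 and Mef2c were higher in OB than in MSC libraries (1.41 ± 0.10 and 0.93 ± 0.13) and 9 regulators were lower, of 13 tested and against the same 69.9%, including the Sox9 partner Sox5 (-1.87 ± 0.29). Of 8 genes for sulfate uptake and chondroitin chain synthesis 0 passed by limma between genotypes (4 at an unadjusted p under 0.05 in OB and 3 in MSC libraries; 0 by edgeR in both, 1 and 0 by DESeq2), and Chst11, a chondroitin sulfotransferase gene, had the smallest OB p (-0.81 ± 0.15, adjusted p = 0.136). Of 9 genes for proteases of aggrecan and COMP and their inhibitor Timp3, 0 passed by limma between genotypes (2 at an unadjusted p under 0.05 in OB and 0 in MSC libraries; 0 by edgeR or DESeq2 in both), and all 9 were lower in OB than in MSC libraries in both genotypes (69.9% of all genes passed in either direction in wild-type and 59.6% in deficient mice), with log2 fold changes of -4.42 to -2.52 in deficient and -4.06 to -3.18 in wild-type mice. Mmp13, which cleaves aggrecan and type II collagen, was at 3346 ± 1695 in deficient and 1316 ± 505 in wild-type OB libraries (1.23 ± 0.44, adjusted p = 0.435, 0.0357 without H, range 0.0357 to 0.789).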

How the data were processed

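The deposited values, as the authors give them, are normalized counts per gene symbol, a signal with no negative values. In every library 100% of them were whole multiples of 1 step within 0.01, and these multiples were used as recovered whole reads. DESeq2 1.24.0 and mm10 are named in the submitters' processing notes; which aligner, counter, annotation or filter was used is not given in the sources used here. For the tests, limma 3.58.1 with a trended prior (R 4.3.3) was fitted to log2(normalized count + 1) of every gene that reached 10 in 4 or more of its libraries. The threshold was 0.05 for p adjusted by Benjamini and Hochberg's method across that whole set. The log2(value + 1) scale understates changes of low genes. Fits used the 8 libraries of a comparison, or all 16 for the difference of genotype effects.

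Alternatives were a filter of 50 or none, a pseudocount of 5, quantile normalization, recovered reads tested with DESeq2 1.42.0 or with edgeR 4.0.16 (TMM, quasi-likelihood), leaving out each library, the mice numbered from 29 only, leaving out libraries rich in muscle (MSC G and H) or stroma reads (OB E and F), all 16 libraries in 1 fit, and the mouse as a replicate block. Among deficient MSC libraries G and H were low in Y-linked Ddx3y (47.1 and 46.8), and E and F were high (3355 and 1848). Leaving out G and H, or E and F, thus also split the deficient group by these levels. Muscle or stroma content and sex cannot be told apart in these alternatives. On recovered reads edgeR called 4 genes between genotypes in OB and 147 in MSC libraries, and 8632 between sorts in deficient and 10202 in wild-type mice. OB and MSC titles share animal numbers, which were read as the same mouse; deviations from the group means of a mouse's OB and MSC libraries correlated with r from 0.0241 to 0.285. P-values measure the spread between these libraries. The code was tested on simulated data. Gene positions and exon lengths are from GENCODE M21 (GRCm38/mm10), and seed matches were sought in the longest 3′ UTR of a gene. The 10 genes and all lists were chosen with earlier results of these data known; every member is named, and of each companion list the genes that passed or had the smallest p. Nearest genes were ranked by Pearson's r among genes with a mean of at least 50, and 1 of them is not reported here. Promoter sequences, at hand for 7 of the 10 genes, were searched on both strands for the SOX core letters ACAATG and ACAAAG. A match was found in 0 of the 7, against 28.6% of 32851 promoters. These too are matches of letters only. Protein, splicing and mature microRNA were not analysed here.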

Additional observations from a re-analysis of the deposited data

Results flagged for a closer look

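In 4 of the 40 sets of 4 libraries (10 genes in 4 groups), 1 library stood apart, its gap to the nearest other, as a share of the group's range on the log2 scale, being above Dixon's 95% critical value; chance flags about 1 in 20 groups. Acan in wild-type MSC libraries had D as the highest, with a gap of 0.957 of the range, and Hapln1 in the same group had D as the highest, with 0.864. Matn1 in deficient MSC libraries had H as the highest, with 1.00, because the other 3 were at 0. Panx3 in deficient OB libraries had H as the lowest, with 0.840.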

How the results depend on the processing

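Log2 fold changes of the 10 genes were recomputed in 619 combinations of value and alternative. These took in every member tested in both genotype comparisons and between wild-type sorts. Between deficient sorts they took in only the members that passed in the main fit (Matn1, Matn3, Panx3, Sox9 and Comp). For the difference of effects they took in only Cytl1, Chad and Ihh. Other members in those comparisons are not counted in the numbers that follow. Direction and side of the threshold stayed in 590, a call was lost in 9 and gained in 12, and the sign turned in 8, all of these for Sox9 and Acan. Sox9 in MSC libraries was 0.12 with mice numbered from 29 only and -0.40 to 0.0363 when 1 library was left out, and in OB libraries 0.0682 with those mice. Acan between wild-type sorts was 0.70 after quantile normalization, 0.0246 with those mice and -0.43 to 0.27 when 1 library was left out (positive without MSC D or OB B or C). The genes passing in MSC libraries (159) numbered 1180 by DESeq2, 2246 with all 16 libraries in 1 fit, 2 with mice numbered from 29 only and 0 without G and H; leaving out 1 library gave 0 to 2261, namely 12, 0, 6 and 1 without A, B, C and D and 11, 2261, 1 and 2 without E, F, G and H. Of the 10 genes, 2 passed there by DESeq2, 2 with all 16 libraries and 0 to 2 when 1 library was left out (2 without F). In OB libraries (4 genes) the numbers were 16 after quantile normalization, 191 by DESeq2, 8 with mice numbered from 29 only, 88 without E and F, 24 with all 16 libraries and 3 to 108 when 1 library was left out (7, 20, 30 and 108 without C, E, F and H). Of the 10 genes, 4 passed by DESeq2, 0 with all 16 libraries and 0 to 1 when 1 library was left out (0 without B). Between deficient sorts 5 of the 10 passed in the main fit and 3 to 7 over all alternatives. A filter of 50 left 3 of the 10 passing, because Matn1 and Panx3 were too low to be tested under it. Leaving out the deficient MSC library E gave 7. For the difference of effects (2 genes), the numbers were 0 with a pseudocount of 5, 4 without a filter, 1 with a filter of 50, 1 by edgeR, 142 by DESeq2 and 0 to 571 when 1 library was left out (571 without F, 4 without MSC E), with 0 to 1 of the 10. The cause was not tested. The replicate block changed the call of Hapln1 between wild-type sorts (0.70, adjusted p = 0.0321) and of no other of the 10; it gave 3 genes for the difference of effects, 10216 between wild-type sorts and 8978 between deficient sorts. Precision was limited by 4 libraries a group and, for Ihh and Matn1 in MSC libraries, by depth.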
